A study of Rattus norvegicus with 6 samples.

Results

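The ligand and receptor families of axon guidance comprise the ephrins and their Eph receptors, the semaphorins with the plexins and neuropilins, the Slits with the Robos, and the netrins with the Unc5 receptors. Members were chosen by gene symbol, as every gene of these families that had a probe set (a group of short probes for 1 transcript) annotated to that gene alone. This gave 56 genes of the 14218 on the array, 28 of them ligands and 28 receptors, with 95 probe sets between them. Where a gene had several, the brightest on average stood for it. Of the 56 genes, 35 were bright enough to be tested, with a stage mean of 100 units or more, among 10334 tested genes in all. The other 21 lay under that level, which is close to the background of the array.

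These families act at short and long range on growing axons and on migrating cells, and several of them also pattern blood vessels. Ephrins are held at the cell surface and signal on contact, with A-type ephrins linked by a lipid anchor and B-type ephrins by a transmembrane stretch. Semaphorins signal through plexins, and the secreted class 3 members mostly need a neuropilin as coreceptor. The choroid plexus is the vascularised epithelial tissue that makes cerebrospinal fluid, and Slit proteins released into that fluid are known to guide migrating neuroblasts.

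RNA was taken from choroid plexuses of the lateral ventricles of Sprague-Dawley rats at embryonic day 19 (E19), at postnatal day 2 (P2) and in adulthood, with no treatment or genetic change in any group. Adult animals were males according to the study's methods, and the sex of the fetuses and pups was not given in the sources used here. The pregnant females were under isoflurane when fetuses were removed. Each stage had 2 arrays with RNA from separate pools of animals, and a value therefore describes a pool and not an animal. Values are MAS5 signal intensities, on a linear scale of arbitrary units, and a log2 difference is a difference of mean log2 intensity between stages, given with its standard error. In such bulk tissue, fewer cells of a type and less RNA per cell cannot be told apart.

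Median intensity was 120.4 to 126 units on the 4 developing arrays and 106 and 100.1 units on the adult arrays, and at most 53.5% of probe sets reached 100 units on any array. Centring the arrays on their median moved the median log2 difference of all probe sets from the adult by -0.11 at E19 and -0.12 at P2. Ttr, the thyroxine carrier that marks the choroid plexus epithelium, had 12749.9 and 13345 units in the E19 pools, 12702 and 10837 in the P2 pools and 14847 and 11640.1 in the adult pools, and 8 of the 9 epithelium markers on the array reached 100 units at every stage. The exception was Kcnj13, a potassium channel, which stayed under 100 units on all 6 arrays. Between the 2 pools of a stage, the members above 100 units in both differed by a median factor of 1.08 (E19), 1.14 (P2) or 1.18 (adult pools). The widest such factor was that of the netrin family member Ntng1 in the adult, at 1.64.

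More guidance genes were higher than lower in the developing plexus. At E19, 20 of the 35 tested members were higher than in the adult, where 31.4% of all tested genes were, and 6 were lower, where 25.2% of all tested genes were. At P2, 17 members were higher than in the adult (28.8% of all tested genes) and 6 were lower (21.8%). The median log2 difference of the tested members was 0.56 at E19 and 0.53 at P2, against 0.04 and 0.05 over all tested genes. Both comparisons use the same 2 adult arrays. A member entered the test through its brightest stage, and 13 of the 35 had an adult mean under 100 units and passed only through E19, P2 or both, while Sema4g passed only through the adult, so the direction of these was in part set by that filter. Among the 20 members with a mean of at least 100 units at every stage, 7 were higher and 5 lower at E19, where 27.0 and 26.5% of the 8894 such genes were. At P2, 6 of these 20 were higher and 4 lower, against 24.0 and 22.8% of such genes. For members above 100 units throughout, the counts higher lay slightly above these shares at both stages, and the counts lower slightly under them. With 20 members, each of these gaps amounts to few genes, and none was tested. An excess of higher members was therefore not shown for this subset by the counts. The median log2 difference of these 20 was 0.24 at E19 and 0.06 at P2, against -0.008 and 0.004 over all such genes. With values under 100 units set to 100, the median over the 35 was 0.35 at E19 and 0.26 at P2. That median still holds the 13 members that passed only through a developing stage. In the same developing pools, markers of endothelium summed to between 5.18 and 5.53 times their adult level, and their part in the member counts was not tested.

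Ligands and receptors each had members called higher and members called lower. Of 20 tested ligands, 11 were higher and 4 lower at E19, and 11 were higher and 3 lower at P2. Among 15 tested receptors, 9 were higher and 2 lower at E19, and 6 were higher and 3 lower at P2. Over all tested genes, 31.4% were higher and 25.2% lower at E19, and 28.8 and 21.8% at P2. Higher at both developing stages were 15 members, namely Efna1, Efna5, Efnb1, Efnb3, Epha5, Ephb4, Sema3f, Sema3g, Sema6a, Sema6d, Plxna1, Plxna2, Ntn1, Unc5b and Unc5c. All of these but Ephb4, Sema3f, Sema6d and Plxna1 had an adult mean under 100 units and passed only through a developing stage. Both comparisons share the adult arrays, so calls at the 2 stages are not independent. The share of all tested genes with the same call at both stages was not counted. Epha5 and Unc5c were under 100 units in every P2 and adult pool, and their P2 calls ended with values under 100 units set to 100. Lower at both were 4, namely Sema4g, Plxnb1, Plxnd1 and Slit2, and 0 members were higher at one developing stage and lower at the other. The call held when each of the 6 arrays was left out in turn for 14 of the 26 members called at E19 and for 15 of the 23 called at P2.

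**Figure D1:**
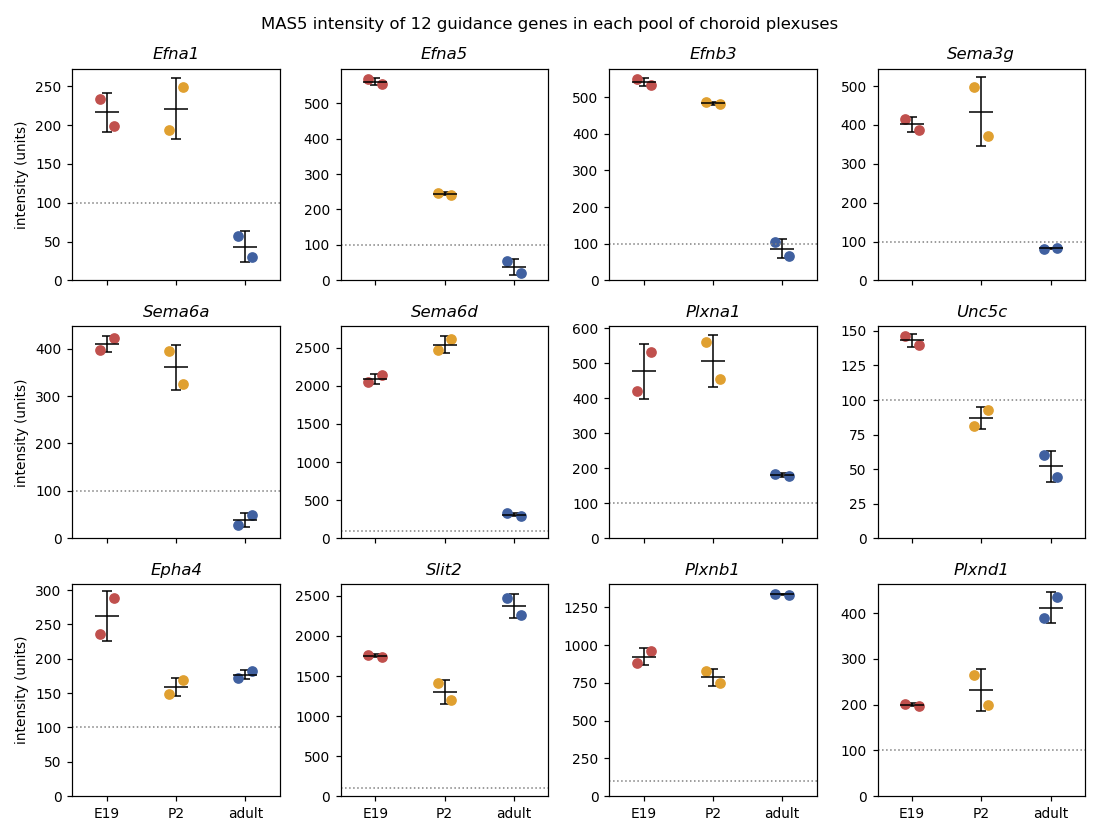
Signal intensity (arbitrary units, linear axis from 0) of 12 called members on each of the 6 arrays, with 1 point per pool of animals at E19, P2 and in the adult, bars for the mean ± SD of the 2 pools and a dotted line at 100 units. Sema6d falls from 2048 and 2137 units at E19 to 327 and 296 in the adult, while Plxnd1 climbs from 202 and 197 to 389 and 436.

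For members that moved together across the stages, the sequence before the gene start is shown, since it is the stretch where a shared short motif would be looked for. RefSeq promoter windows on GRCr8 were found for 42 of the 56 members, and the 250 bases before the start were searched on both strands for the GC box (letters GGGCGG), the CCAAT box and the TATA box (letters TATAAA). Copies of the GC box can overlap each other, and its reverse complement can overlap a CCAAT box. Of the 25 tested members with a window, 60.0% held a GC box, against 60.6% of the 8648 tested genes that had a window, and 32.0% held a CCAAT box, against 35.8%. No TATA box was matched in any of the 42 windows, where 13.1% of all 27457 windows and 6.13% of those of tested genes held one, which says only that these letters are not in them. The windows below belong to Sema6d (chr3:132337106-132337355, plus strand), Efna1 (chr2:176986822-176987071, minus strand) and Sema3g (chr16:6419775-6420024, plus strand), which were higher at both developing stages with every array left out in turn, and to Plxnd1 (chr4:150715188-150715437, minus strand), which was lower at both. They read 5′ to 3′ along the gene's strand, with matches to the GC or CCAAT box in capitals.
Sema6d: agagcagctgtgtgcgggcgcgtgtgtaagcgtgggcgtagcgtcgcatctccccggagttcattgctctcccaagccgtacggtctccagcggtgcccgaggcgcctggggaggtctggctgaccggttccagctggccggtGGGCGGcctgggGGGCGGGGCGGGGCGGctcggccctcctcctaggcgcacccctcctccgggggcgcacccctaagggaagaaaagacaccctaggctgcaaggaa
Efna1: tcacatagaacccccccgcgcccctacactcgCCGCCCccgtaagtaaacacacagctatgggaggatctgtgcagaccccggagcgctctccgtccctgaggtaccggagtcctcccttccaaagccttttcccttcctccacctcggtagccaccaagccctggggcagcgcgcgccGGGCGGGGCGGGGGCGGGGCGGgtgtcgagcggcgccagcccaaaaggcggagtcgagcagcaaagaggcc
Sema3g: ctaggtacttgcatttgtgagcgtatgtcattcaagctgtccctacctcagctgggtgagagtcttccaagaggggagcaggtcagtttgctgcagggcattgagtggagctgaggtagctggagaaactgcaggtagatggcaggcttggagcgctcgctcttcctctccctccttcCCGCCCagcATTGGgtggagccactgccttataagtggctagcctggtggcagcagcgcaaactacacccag
Plxnd1: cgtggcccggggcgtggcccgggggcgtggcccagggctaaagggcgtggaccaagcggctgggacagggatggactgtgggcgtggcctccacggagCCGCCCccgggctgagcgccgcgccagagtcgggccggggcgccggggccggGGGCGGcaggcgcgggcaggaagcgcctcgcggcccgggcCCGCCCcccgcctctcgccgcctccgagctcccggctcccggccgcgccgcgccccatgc

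GC boxes occurred 4 times in the Sema6d window, 5 times in that of Efna1, once in that of Sema3g and 3 times in that of Plxnd1, so the motif stood in windows of genes that moved in either direction. The CCAAT box was matched in the Sema3g window alone of these 4. CpG dinucleotides numbered 23, 23, 5 and 37 in the same order, with a median of 14 over the tested members and 17 over all tested genes.

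All 5 ephrins on the array were tested, and 4 of them were higher than in the adult at each developing stage. Over all tested genes, 31.4% were higher at E19 and 28.8% at P2. These 4 ephrins had an adult mean under 100 units and passed the filter only through E19 and P2. Their direction was therefore in part set by that filter. Efna5, an A-type ephrin known for topographic mapping in the visual system, had 567 and 555 units in the E19 pools, 247 and 241 in the P2 pools and 54.1 and 22.1 in the adult pools. Every developing pool lay above the adult pools, and the E19 pools lay above the P2 pools. The difference from the adult was at least 5.61-fold at E19 (log2 4.02 ± 0.41, adjusted p = 0.00125) and at least 2.44-fold at P2 (2.82 ± 0.41, adjusted p = 0.00461), both bounds because the adult pools were under 100 units. Efnb3, a B-type ephrin that acts as a midline barrier for corticospinal axons, had 549.7 and 533 units in the E19 pools, 485 and 480.3 in the P2 pools and 105 and 67.9 in the adult pools. Its level was 6.40-fold above the adult at E19 (log2 2.68 ± 0.21, adjusted p = 0.000598) and 5.70-fold above it at P2 (2.51 ± 0.21, adjusted p = 0.000924), and E19 and P2 were close to each other. These folds are not bounds, since adult pool 1 was above 100 units, though the adult mean was 86.7. They are therefore not set against the bounds of Efna5.

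Efna1, an A-type ephrin also expressed by vessels, had 234 and 199 units in the E19 pools, 193 and 249 in the P2 pools and 57.4 and 29.5 in the adult pools. Its developing pools overlapped each other and stood apart from the adult, at least 2.16-fold higher at E19 (log2 2.39 ± 0.34, adjusted p = 0.00345) and at least 2.20-fold at P2 (2.41 ± 0.34, adjusted p = 0.0041). A second probe set of Efna1 was also called at both stages, above the adult by at least 1.48-fold at E19 (log2 4.24 ± 0.13, adjusted p = 6.48e-05) and by at least 1.87-fold at P2 (4.57 ± 0.13, adjusted p = 8.55e-05), and its adult pools, at 7.35 and 8.40 units, lay so far under 100 units that its log2 differences are not set against those of the first. Efnb1, the B-type ephrin of craniofacial patterning, had 259 and 197 units in the E19 pools, 154 and 151 in the P2 pools and 66.3 and 64.7 in the adult pools, a stepwise order in which no stage overlapped the next. Its level was at least 2.26-fold above the adult at E19 (log2 1.79 ± 0.15, adjusted p = 0.000639) and at least 1.53-fold above it at P2 (1.22 ± 0.15, adjusted p = 0.00253), while E19 and P2 were not called against each other (0.57 ± 0.15, adjusted p = 0.082). Calls for these 4 ephrins held without each array in turn. Efna4 differed from them, with 107 and 100.0 units in the E19 pools, 57.9 and 79.8 in the P2 pools and 95.8 and 119.5 in the adult pools. It was called lower at P2 (log2 -0.66 ± 0.19, adjusted p = 0.041), but that call ended without E19 pool 1 (-0.66), E19 pool 2 (-0.66), P2 pool 1 (-0.42) or adult pool 2 (-0.50), and also with values under 100 units set to 100.

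Of 12 Eph receptors, the tyrosine kinases that bind ephrins, 8 did not reach a mean of 100 units at any stage: Epha2, Epha3, Epha6, Epha7, Epha8, Epha10, Ephb1 and Ephb6. Ephb4, the receptor of the venous side of vessels, had 464 and 376 units in the E19 pools, 316 and 349.7 in the P2 pools and 197 and 252 in the adult pools. Its E19 pools lay above both adult pools, by 1.87-fold (log2 0.91 ± 0.17, adjusted p = 0.00902), and this call held without each array in turn. At P2 it was 1.49-fold higher (0.58 ± 0.17, adjusted p = 0.041), a call that ended without E19 pool 1 (0.58), E19 pool 2 (0.58), P2 pool 1 (0.65), P2 pool 2 (0.50) or adult pool 1 (0.40), and under either rescaling of the arrays. Ephb3 was not called, with 220.1 and 210.3 units in the E19 pools, 183 and 238 in the P2 pools and 241 and 283 in the adult pools and log2 differences of -0.28 ± 0.16, adjusted p = 0.195 at E19 and -0.32 ± 0.16, adjusted p = 0.152 at P2.

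Both A-type receptors that were tested were higher at E19, where 31.4% of all tested genes were. Epha5 passed the filter only through E19, so its direction was in part set by that filter. Epha4, which binds ephrins of either type, had 236 and 288 units in the E19 pools, 149 and 169 in the P2 pools and 172 and 181 in the adult pools. The E19 pools were the highest, while the P2 and adult pools lay close together, with P2 slightly lower. Against the adult the difference at E19 was 1.47-fold (log2 0.56 ± 0.13, adjusted p = 0.0182), a call that ended without E19 pool 2 (0.42), adult pool 1 (0.52) or adult pool 2 (0.60) and with quantile normalization. A second Epha4 probe set gave the same order, with a log2 difference at E19 of 0.79 ± 0.14, adjusted p = 0.00732 and at P2 of -0.25 ± 0.14, adjusted p = 0.187. Epha5, a receptor for A-type ephrins, had 113 and 125 units in the E19 pools, 9.56 and 14.2 in the P2 pools and 4.61 and 2.67 in the adult pools, so that it rose above 100 units in the E19 pools alone. Its level was at least 1.19-fold above the adult at E19 (log2 5.08 ± 0.32, adjusted p = 0.000307), and no fold is given at P2, where every pool was under 100 units. The log2 difference at P2 was 1.73 ± 0.32, adjusted p = 0.00937, a call that ended with values under 100 units set to 100.

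**Figure D2:**
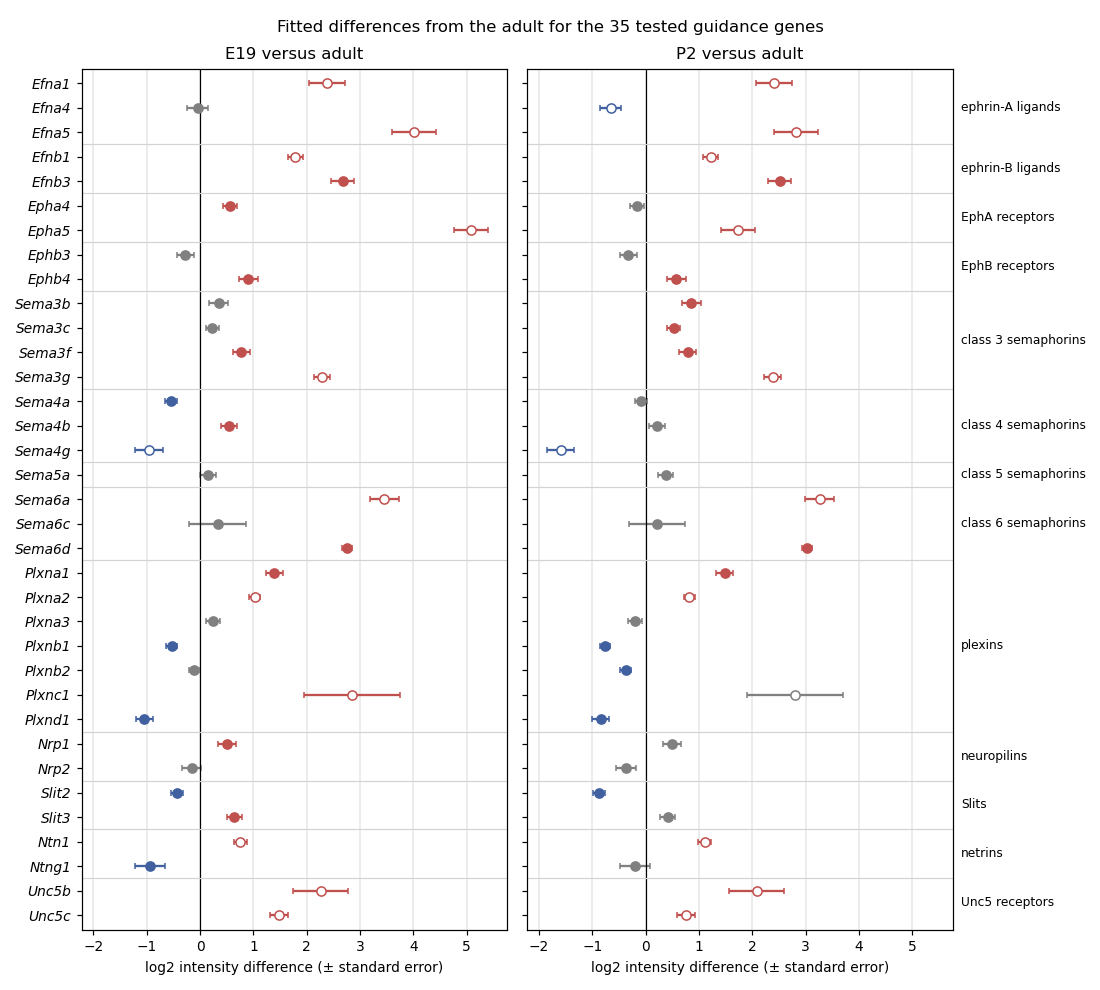
Log2 difference from the adult of each tested member at E19 and at P2, grouped by family, with bars for ± 1 standard error of the limma estimate. Red marks members higher than in the adult, blue those lower and grey those not called, and open symbols mark members with both arrays of a stage under 100 units, whose plotted size depends on values near background; ephrins and class 6 semaphorins lie mostly to the right, plexins on both sides.

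Semaphorins are described by class, with few tested members in each. Of 11 tested members among 17, 5 were higher and 2 lower at E19, where 31.4 and 25.2% of all tested genes were. At P2, 6 were higher and 1 lower (28.8 and 21.8% of all tested genes). Sema3g, Sema4b and Sema6a passed the filter only through developing stages and Sema4g only through the adult. The direction of these was in part set by that filter. All 4 tested class 3 members, the secreted type, were higher at P2, and 2 of them, Sema3f and Sema3g, also at E19. Sema3g, a ligand made by arterial endothelium, had 415 and 388 units in the E19 pools, 497 and 371 in the P2 pools and 80.7 and 83.8 in the adult pools. Its developing pools were all above 370 units and the adult pools under 100, a difference of at least 4.01-fold at E19 (log2 2.29 ± 0.16, adjusted p = 0.0004) and at least 4.29-fold at P2 (2.38 ± 0.16, adjusted p = 0.000468) that held without each array in turn. Sema3f, which repels axons and vessels through neuropilin-2, had 596 and 668 units in the E19 pools, 704 and 578 in the P2 pools and 409.8 and 333 in the adult pools. Its level was 1.71-fold above the adult at E19 (log2 0.77 ± 0.16, adjusted p = 0.0118), a call lost without E19 pool 2 (0.69), and 1.73-fold above it at P2 (0.79 ± 0.16, adjusted p = 0.0127), lost without P2 pool 1 (0.65). Its second probe set was called at both stages as well, at log2 0.69 ± 0.14, adjusted p = 0.0103 and 0.68 ± 0.14, adjusted p = 0.0125.

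Sema3b and Sema3c were highest at P2. Sema3c, which can attract as well as repel, had 2205 and 2113 units in the E19 pools, 2514 and 2787 in the P2 pools and 1687 and 2002 in the adult pools, and exceeded its adult level 1.44-fold at P2 (log2 0.53 ± 0.12, adjusted p = 0.0188). This call ended without P2 pool 2 (0.45) or adult pool 1 (0.40). For Sema3b the values were 401 and 312 units in the E19 pools, 533 and 477 in the P2 pools and 311 and 248 in the adult pools, a difference of 1.82-fold at P2 (log2 0.86 ± 0.18, adjusted p = 0.0141) that ended without P2 pool 1 (0.78) or adult pool 2 (0.70). Neither was called at E19, with log2 differences of 0.35 ± 0.18, adjusted p = 0.155 for Sema3b and 0.23 ± 0.12, adjusted p = 0.159 for Sema3c. Sema3a, Sema3d and Sema3e did not reach a mean of 100 units at any stage.

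Class 6 semaphorins span the membrane and bind A-type plexins, and 2 of the 3 that were tested were higher at both developing stages. Among all tested genes, the share higher was 31.4% at E19 and 28.8% at P2. Sema6a passed the filter only through developing stages, so its direction was in part set by that filter. Sema6d had 2048 and 2137 units in the E19 pools, 2464 and 2619.6 in the P2 pools and 327 and 296 in the adult pools, with the 4 developing pools far above the adult pools. Its level was 6.73-fold above the adult at E19 (log2 2.75 ± 0.10, adjusted p = 8.81e-05) and 8.17-fold above it at P2 (3.03 ± 0.10, adjusted p = 9.02e-05). All of these values were well above 100 units, so neither fold is a bound, and the calls held without each array in turn. Sema6a had 398 and 422 units in the E19 pools, 394 and 326 in the P2 pools and 28.3 and 49.2 in the adult pools, which is at least 4.09-fold higher at E19 (log2 3.46 ± 0.28, adjusted p = 0.000604) and at least 3.59-fold at P2 (3.26 ± 0.28, adjusted p = 0.000921). A second Sema6a probe set was called at both stages too, above the adult by at least 1.89-fold at E19 (log2 2.91 ± 0.29, adjusted p = 0.00121) and by at least 1.55-fold at P2 (2.63 ± 0.29, adjusted p = 0.00209). Sema6c was not called, and its adult pools were far apart, with 119.9 and 159 units in the E19 pools, 130.1 and 125 in the P2 pools and 193 and 62.5 in the adult pools. Without adult pool 1 it was called higher, at log2 1.14 at E19 and 1.03 at P2. Sema6b stayed under 100 units.

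The 3 tested class 4 semaphorins, a transmembrane type, did not move together. Sema4g was lower at both stages, with 47.7 and 70.2 units in the E19 pools, 33.2 and 41.8 in the P2 pools and 132 and 96.1 in the adult pools. Its log2 difference was -0.96 ± 0.26, adjusted p = 0.0278 at E19 and -1.59 ± 0.26, adjusted p = 0.00641 at P2, or at least 1.13-fold lower at each against 100 units. The E19 call ended without E19 pool 1 (-0.68) or adult pool 1 (-0.73), and neither call remained with values under 100 units set to 100. Sema4a, known from immune cells and the retina, had 136 and 126 units in the E19 pools, 166 and 195 in the P2 pools and 197 and 187 in the adult pools and was 1.47-fold lower at E19 (log2 -0.55 ± 0.11, adjusted p = 0.0118), a call lost without E19 pool 2 (-0.50). Sema4b went the other way at E19 (log2 0.54 ± 0.15, adjusted p = 0.031), with 132 and 152 units in the E19 pools, 101 and 128 in the P2 pools and 94.3 and 101 in the adult pools, and that call ended without E19 pool 1 (0.64), E19 pool 2 (0.44), adult pool 1 (0.49) or adult pool 2 (0.59) and under either rescaling of the arrays. Sema5a, which carries thrombospondin repeats, was not called at either stage, with 1009.9 and 864 units in the E19 pools, 1143 and 1044 in the P2 pools and 761 and 929 in the adult pools. Sema4d and Sema4f were under 100 units.

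Plexins are the signalling receptors for semaphorins. Of 7 tested members, 3 were higher and 2 lower at E19, where 31.4 and 25.2% of all tested genes were, and 2 were higher and 3 lower at P2 (28.8 and 21.8%), while Plxna4 did not reach 100 units. Plxna1 had 422 and 533 units in the E19 pools, 559.6 and 455 in the P2 pools and 184 and 177 in the adult pools, every developing pool being above every adult pool. Its level was 2.62-fold above the adult at E19 (log2 1.39 ± 0.16, adjusted p = 0.00185) and 2.79-fold above it at P2 (1.48 ± 0.16, adjusted p = 0.00191). Plxna2, with 139 and 149 units in the E19 pools, 123 and 127 in the P2 pools and 74.8 and 66.9 in the adult pools, was at least 1.44-fold higher at E19 (log2 1.02 ± 0.10, adjusted p = 0.00104) and at least 1.25-fold at P2 (0.82 ± 0.10, adjusted p = 0.00256). Both plexins kept their calls without each array in turn, and Plxna3 was not called, with 331 and 294 units in the E19 pools, 255 and 206 in the P2 pools and 261 and 266 in the adult pools.

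Lower in the developing plexus was Plxnd1, the receptor that endothelial cells use for semaphorin 3E, with 202 and 197 units in the E19 pools, 265 and 199.6 in the P2 pools and 389 and 436 in the adult pools. The adult pools were above all 4 developing pools, by 2.06-fold against E19 (log2 -1.04 ± 0.16, adjusted p = 0.00437) and 1.79-fold against P2 (-0.84 ± 0.16, adjusted p = 0.0104), and both calls held without each array in turn. Plxnb1, a receptor for Sema4d, had 885 and 964 units in the E19 pools, 827 and 749 in the P2 pools and 1339.5 and 1334 in the adult pools, again with the adult pools highest. It was 1.45-fold lower at E19 (log2 -0.53 ± 0.10, adjusted p = 0.00817), a call lost without E19 pool 1 (-0.47), and 1.70-fold lower at P2 (-0.76 ± 0.10, adjusted p = 0.00315), which held. The other tested probe sets of Plxnb1 had log2 differences of the same sign that were not called. Plxnb2 was called lower at P2, by 1.30-fold (log2 -0.37 ± 0.10, adjusted p = 0.0283), with 5501 and 5296 units in the E19 pools, 4817 and 4244 in the P2 pools and 5862 and 5848 in the adult pools, and this ended without E19 pool 1 (-0.37), E19 pool 2 (-0.37), P2 pool 2 (-0.28), adult pool 1 (-0.37) or adult pool 2 (-0.37) and with quantile normalization. Plxnc1 was called higher at E19 (log2 2.85 ± 0.90, adjusted p = 0.0457), with 88.7 and 131 units in the E19 pools, 144 and 75.6 in the P2 pools and 37.9 and 5.92 in the adult pools. The wide gap between its adult pools goes with a standard error that is large beside those of the other plexins, and the call ended without E19 pool 1 (3.13), E19 pool 2 (2.57), P2 pool 1 (2.85), P2 pool 2 (2.85) or adult pool 2 (1.51), and with the arrays centred on their median.

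Neuropilins, which pair with plexins to receive class 3 semaphorins and also bind vascular growth factor, gave a result that depended on the probe set. The representative probe set of Nrp1 had 2055 and 2125 units in the E19 pools, 1914 and 2241 in the P2 pools and 1690.2 and 1279 in the adult pools, a difference at E19 of 1.42-fold (log2 0.51 ± 0.16, adjusted p = 0.0483). This call ended without E19 pool 1 (0.53), E19 pool 2 (0.48), P2 pool 1 (0.51), P2 pool 2 (0.51) or adult pool 2 (0.31) and with the arrays centred on their median. The second Nrp1 probe set had 1191 and 1310.0 units in the E19 pools, 411 and 517 in the P2 pools and 429.8 and 471 in the adult pools, with the E19 pools apart from the rest. Its log2 difference from the adult was 1.47 ± 0.14, adjusted p = 0.00105 at E19 and 0.03 ± 0.14, adjusted p = 0.854 at P2, and E19 was also above P2 (1.44 ± 0.14, adjusted p = 0.0202). The probe sets of Nrp1 therefore disagree on whether P2 lies with E19 or with the adult. Nrp2 was not called, with 200.4 and 271 units in the E19 pools, 211 and 192 in the P2 pools and 238 and 283 in the adult pools.

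Slits and Robos were unevenly represented. Slit2 had 1764 and 1739 units in the E19 pools, 1408 and 1199.7 in the P2 pools and 2479.7 and 2266 in the adult pools, with P2 lowest and the adult highest. It was 1.35-fold lower at E19 (log2 -0.44 ± 0.11, adjusted p = 0.0249), a call that ended without E19 pool 1 (-0.45), E19 pool 2 (-0.43) or adult pool 1 (-0.37), and 1.82-fold lower at P2 (-0.87 ± 0.11, adjusted p = 0.00336), which held without each array. A second Slit2 probe set had the same sign and was not called, at -0.31 ± 0.20, adjusted p = 0.225 and -0.55 ± 0.20, adjusted p = 0.0668. Slit3, the family member best known from diaphragm and vessels, went the other way, with 791 and 788 units in the E19 pools, 704 and 643 in the P2 pools and 451 and 566 in the adult pools. Its level was 1.56-fold above the adult at E19 (log2 0.64 ± 0.13, adjusted p = 0.0124), a call lost without E19 pool 1 (0.64) or E19 pool 2 (0.65), and at P2 the difference was 0.41 ± 0.13, adjusted p = 0.0529, called only without adult pool 2 (0.58). Slit1 was under 100 units on every array, as were the receptors Robo1, Robo2 and Robo3. Of these, Robo2 had 95.4 and 93.1 units in the E19 pools, 55.9 and 30.5 in the P2 pools and 10.9 and 28.5 in the adult pools, so that E19 was close to the level for testing, and no fold is given.

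Netrin 1, encoded by Ntn1 and secreted as a guidance and survival cue, had 93.9 and 102 units in the E19 pools, 115 and 136 in the P2 pools and 56.1 and 60.2 in the adult pools. The adult pools were the lowest, and the difference at P2 was at least 1.25-fold (log2 1.11 ± 0.12, adjusted p = 0.0018). At E19 the log2 difference was 0.75 ± 0.12, adjusted p = 0.00487, with no fold because the E19 mean itself was under 100 units, and that call ended with values under 100 units set to 100. Ntng1, a membrane-anchored netrin that binds its own partner on axons, was lower at E19, by 1.92-fold (log2 -0.94 ± 0.28, adjusted p = 0.0392), with 397 and 356 units in the E19 pools, 532 and 746 in the P2 pools and 564 and 923 in the adult pools. This call ended without E19 pool 1 (-1.02), E19 pool 2 (-0.86) or adult pool 2 (-0.59), and its P2 and adult pools overlapped. Ntn5 was under 100 units.

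Both tested Unc5 receptors, which turn netrin into a repulsive cue and act as dependence receptors, were higher at both developing stages. Each had an adult mean under 100 units and passed the filter only through developing stages. Their direction was therefore in part set by that filter. Unc5c had 147 and 139.9 units in the E19 pools, 81.2 and 92.4 in the P2 pools and 60.1 and 44.0 in the adult pools, in the order E19, P2, adult with no overlap. Its level was at least 1.43-fold above the adult at E19 (log2 1.48 ± 0.17, adjusted p = 0.00189), which held without each array in turn, and at P2 the log2 difference was 0.75 ± 0.17, adjusted p = 0.0188, with no fold since every pool was under 100 units. The P2 call ended without P2 pool 2 (0.66), and with values under 100 units set to 100. Unc5b, expressed by sprouting vessels, had 136 and 123 units in the E19 pools, 134 and 97.7 in the P2 pools and 15.7 and 46.2 in the adult pools, a difference of at least 1.29-fold at E19 (log2 2.26 ± 0.51, adjusted p = 0.0161) and at least 1.14-fold at P2 (2.08 ± 0.51, adjusted p = 0.0235). The E19 call ended without E19 pool 1 (2.20) or E19 pool 2 (2.33), the P2 call without P2 pool 1 (1.86) or P2 pool 2 (2.31), and both ended with values under 100 units set to 100. Unc5a stayed at 4.22 units or less on every array.

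**Figure D3:**
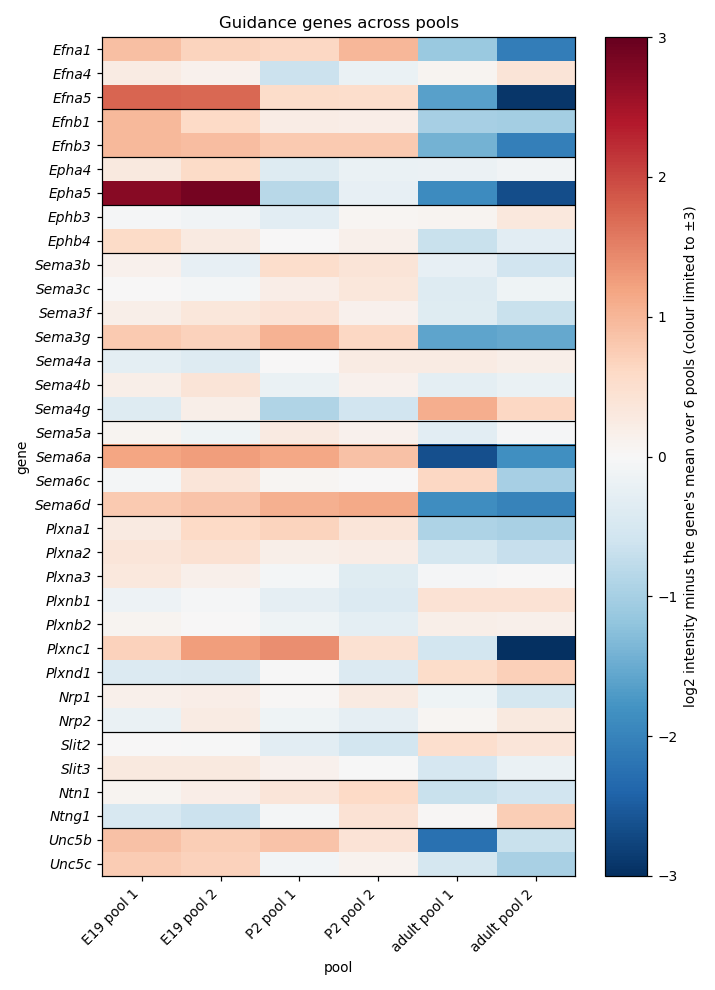
Log2 intensity of each tested member (rows, by family) on each of the 6 arrays (columns), relative to its own mean over the 6 pools, with the colour scale limited to ± 3. Sema6d, Efnb3 and Sema3g are higher in all 4 developing pools than in the adult pools, Plxnd1 and Plxnb1 lower, and Epha5 is highest in the E19 pools.

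Few members were called between the fetal and the newborn plexus. Between E19 and P2, 2 of 35 members were called higher at E19, where 2.56% of all tested genes were, and 0 were called lower, where 3.61% were. At an unadjusted p under 0.05 in limma, 9 members were higher and 5 lower at E19, and with an intensity trend in the variance prior 3 were called higher and 0 lower. Shares over all tested genes were not counted at these settings, so these counts have no background beside them. Epha4 was 1.64-fold higher at E19 (log2 0.72 ± 0.13, adjusted p = 0.0447), and its second probe set gave 1.04 ± 0.14, adjusted p = 0.0258. The representative probe set lost its call without any 1 of the 6 arrays, with log2 differences from 0.58 to 0.86, and with the replicate block (adjusted p = 0.0618). Epha5 was at least 1.19-fold higher (log2 3.35 ± 0.32, adjusted p = 0.0194), lost without E19 pool 1 (3.42), E19 pool 2 (3.28), P2 pool 1 (3.06) or P2 pool 2 (3.64), and with the replicate block (adjusted p = 0.0544). Among the members not called, Efna5 had the largest log2 difference (1.20 ± 0.41, adjusted p = 0.14), which passed without either adult pool (adjusted p = 0.0238).

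Other genes of the guidance pathways were counted in lists of fixed membership. Of 29 further cues, receptors and coreceptors, 28 were on the array and 21 were tested, and 14 were higher and 3 lower at E19 (31.4 and 25.2% of all tested genes), with a median log2 difference of 1.00. At P2, 12 were higher and 2 lower (28.8 and 21.8% of all tested genes), with a median of 0.52. Of the 21, 7 had an adult mean under 100 units and passed only through a developing stage, namely Draxin, Flrt1, Lrrc4, Chl1, Flt1, Sdc3 and Cxcr4. Kdr, a vascular growth factor receptor, was 3.85-fold higher at E19 (log2 1.94 ± 0.10, adjusted p = 0.000188). Flrt1, of a family that binds Unc5 receptors, was at least 2.56-fold higher, with 3.62 and 13.5 units in the adult pools, and the vascular growth factor receptor Flt1 at least 2.30-fold, with 44.4 and 30.5. The chemokine receptor Cxcr4 was at least 2.72-fold higher, with 55.4 and 44.8 units in the adult pools. The calls of these 4 genes at E19 had adjusted p-values in limma of 0.000188 to 0.00199. These calls held without each array in turn, and Kdr and Flt1 are also markers of endothelium. Dcc, the attractive netrin receptor, named here outside the rule for naming genes, was at most 25.4 units on any array.

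Among 50 cytoplasmic effectors, 39 were tested, and 16 were higher and 7 lower at E19 (31.4 and 25.2% of all tested genes), and 15 higher and 10 lower at P2 (28.8 and 21.8%), with a median log2 difference of 0.22 and 0.23. Of the 39, 7 had an adult mean under 100 units. Grb10, an adaptor of receptor tyrosine kinases, had 4232 and 3892 units in the E19 pools, 2172 and 2052 in the P2 pools and 196 and 94.4 in the adult pools (log2 4.90 ± 0.34, adjusted p = 0.00042 at E19). The kinase Pak3 was at least 3.85-fold higher at E19, with 27.1 and 14.4 units in the adult pools (adjusted p = 0.000455), and the collapsin response mediator Dpysl5 at least 1.37-fold, with 10.1 and 17.5 (adjusted p = 0.000681). Vav3, a signalling protein that acts downstream of Eph receptors, was lower, with 805 and 711 units in the E19 pools, 2066 and 2896 in the P2 pools and 10383 and 9559.9 in the adult pools (log2 -3.72 ± 0.18, adjusted p = 0.000179 at E19 and -2.03 ± 0.18, adjusted p = 0.00113 at P2).

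Markers of several cell types moved with stage in the same samples. The summed intensity of 15 endothelium markers was 13462 to 14272 units at E19, 13378 to 13967 at P2 and 2577 to 2585 in the adult. Of the 15, 14 were higher at each developing stage. Over all tested genes, 31.4% were higher and 25.2% lower at E19, and 28.8 and 21.8% at P2. An adult mean under 100 units was found for 7 of 15 endothelium, 5 of 9 mural cell and 4 of 8 cell cycle markers. The same held for 1 of 9 tested fibroblast and 3 of 9 tested macrophage markers. All of these passed the filter only through developing stages, so their direction was in part set by it. Relative to the adult mean, the sums for mural cell markers were 3.91 to 4.26 times and those for fibroblast markers 2.33 to 2.80 times as high. Of 9 tested mural cell markers, 6 were higher and 1 lower at E19 and 7 higher and 0 lower at P2, and of 9 tested fibroblast markers 5 were higher and 2 lower at E19 and 6 higher and 2 lower at P2, with Pdgfra, a growth factor receptor, among those lower at E19. All 8 cell cycle genes were higher at both stages, with sums of 2.36 to 2.60 times the adult. The epithelium markers went the other way in sum, at 0.688 to 0.746 times the adult. Of 8 tested, 4 were lower and 1 higher at E19 and 3 lower and 0 higher at P2. The largest falls in units were those of Prlr, with means of 726 at E19 and 15708 in the adult, and Slc4a10, with 2000 and 11364.5. Otx2 was the marker called higher at E19, and Ttr itself was not called (log2 -0.01 ± 0.15, adjusted p = 0.955 at E19). Macrophage markers summed to 1.74 to 2.40 times the adult, with 3 of 9 tested higher at E19 and 7 at P2, and a median log2 difference of 0.04 and 0.75. Mrc1, a macrophage mannose receptor, had 794 and 698 units in the E19 pools, 964 and 614 in the P2 pools and 39.7 and 25.7 in the adult pools. The part of each of these marker lists in the member differences was not tested.

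Most neuron markers were low. Of 14 neuron markers, 9 were under 100 units on all 6 arrays, among them Rbfox3, Syt1 and Dcx, and of the 5 tested 0 were higher and 1 lower at E19, and 2 were higher and 1 lower at P2. Snap25, which acts in synaptic vesicle fusion, was the one lower at each (log2 -1.54 ± 0.21, adjusted p = 0.00289 at E19 and -0.80 ± 0.21, adjusted p = 0.0268 at P2), and its P2 call ended without any 1 of 4 arrays. The list summed to 0.770 to 0.848 times the adult at E19 and 1.25 to 1.42 times at P2. Of the 5 tested neuron markers, 3 had an adult mean under 100 units and passed the filter only through P2. The same filter passed the progenitor markers Nes and Fabp7 only through developing stages. Of 7 neural progenitor markers on the array, 3 of the 5 tested were higher at each developing stage and 1, Pax6, lower at E19 (a call that ended without any 1 of 4 arrays), with sums of 2.06 to 2.63 times the adult. Sox2 was not called and lay between 1173 and 1723 units on the 6 arrays, and Prom1 had 2029 and 2171 units in the E19 pools, 1859.7 and 1627 in the P2 pools and 179 and 174 in the adult pools. Of 5 tested oligodendrocyte markers, 0 were higher and 4 lower at E19, and 1 was higher and 3 lower at P2. The list summed to 0.494 to 0.712 times the adult in the developing pools. Much of the developing sum was Cldn11, with 940 and 1092 of 1559 and 1681 units in the E19 pools. In the adult pools Cldn11 held 706 and 439 of 4176 and 2134 units. The marker higher at P2 was Cldn11 (log2 1.14 ± 0.30, adjusted p = 0.0295), whose call ended without any 1 of 4 arrays. Oligodendrocyte markers were unequal in the adult pools, at 1.32 and 0.676 times their mean. Mbp, the myelin basic protein gene, had 23.3 and 43.6 units in the E19 pools, 77.0 and 5.76 in the P2 pools and 1989 and 656 in the adult pools. Each member call was also computed without adult pool 1, and 43 of the 51 calls over the 3 comparisons were kept.

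**Figure D4:**
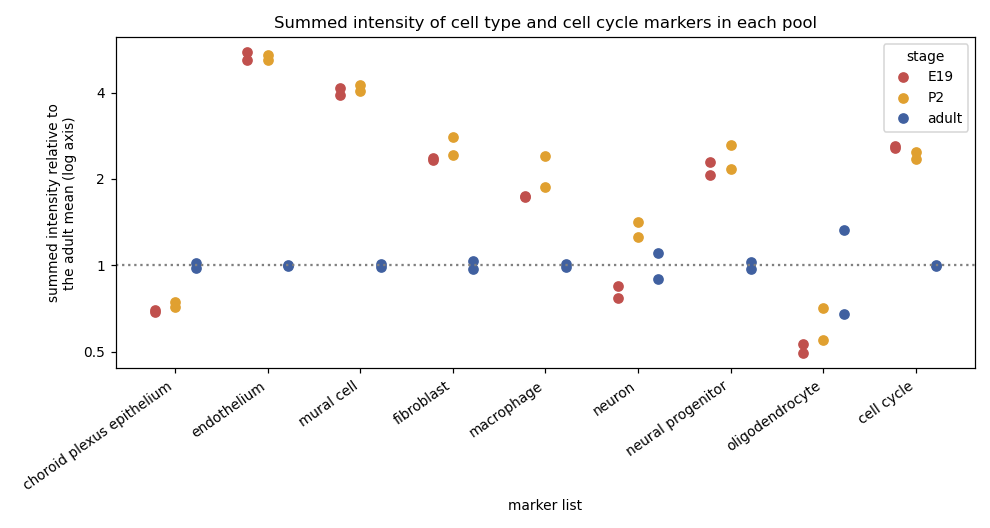
Summed intensity of each marker list on each array relative to the mean of the 2 adult pools (log axis), with 1 point per pool. Endothelium, mural cell and fibroblast lists lie above 2 at E19 and P2, the epithelium list lies under 1, and the adult pools part only for the oligodendrocyte list (1.32 and 0.676) and, less so, for the neuron list.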

How the data were processed

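RNA of lateral ventricle choroid plexuses from E19, P2 and adult rats was hybridised to Affymetrix Rat Genome 230 2.0 arrays, with 2 arrays per stage. The labels give batches of 6 to 10 plexuses for each RNA sample. By the study's methods, fewer animals went into an adult pool than into a developing pool. Pool size therefore went with the contrast of adult and developing stages. The deposited values are signal intensity on a linear scale, which the authors obtained by MAS5 in Affymetrix Expression Console, per the labels and methods. Its version was not given in the sources used here. MAS5 subtracts a background and scales each array to a common trimmed mean, so low values are noisy and a shift shared by most genes would be scaled away. The number of arrays, not depth, limits the precision. P-values measure the spread between pools, not between animals.

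The table held 31099 probe sets, 57 of them controls that were left out. Testing covered the 17808 probe sets whose mean reached 100 units at some stage. The package limma 3.58.1 (R 4.3.3) fitted stage means to the log2 intensities of all 6 arrays together, which left 3 residual degrees of freedom beside 2.15 from the prior. Benjamini-Hochberg adjustment ran over every tested probe set, and an adjusted p under 0.05 was called. The procedure was tested on simulated data. Where both arrays of a stage were under 100 units, a fold is the brighter mean over 100 units, written as "at least", and none is given where both stages were or where that ratio was under 1.

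The array annotation gave 20832 probe sets a single gene and 436 several, and the latter were not used for genes. Symbols were updated to RefSeq by gene number for 20764 and by accession for 2, and 66 kept the older name. Of the 56 members, 24 had more than 1 probe set, and the one with the highest mean over the 6 arrays stood for the gene. Each member could be named, and of each other list at most 4 called genes with the largest log2 differences, besides defining markers. Members and lists were chosen with earlier results of these data known.

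Replicate numbers did not pair the pools, since deviations of pools with the same number correlated at -0.0571, -0.0406 and 0.00694. As alternatives, the low-value filter, pseudocount and floor, the array scaling, the variance prior, a replicate block, a fit of 2 stages only, the mean of a gene's probe sets and a stricter threshold were tried, and each array was left out in turn, with the spread of the lone array assumed equal to that of the remaining arrays. Other probe sets on their own and medians with low values set to 100 units were added after the values were seen. Promoter windows are those of RefSeq on GRCr8.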

Additional observations from a re-analysis of the deposited data

Results flagged for a closer look

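With 2 pools per stage, no array could be tested for standing apart from its group. The difference between the developing stages passed the test for 2 members. Epha4 was higher at E19 than at P2 by 0.72 on the log2 scale, and Epha5 by 3.35. The P2 pools of Epha5 were both under 100 units.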

How the results depend on the processing

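No call changed sign under any alternative run, and the P2 differences of Epha5 and Unc5c became 0 with values under 100 units set to 100. Of the 51 calls over the 3 comparisons, 47 were kept with arrays centred on their median and 47 with quantile normalization. With an intensity trend in the variance prior 45 were kept, and 41 with values under 100 units set to 100. The fewest among these alternatives were 29 kept without a filter on low values and 29 at an adjusted p under 0.01. Centring moved the median log2 difference of all tested probe sets by -0.11 at E19 and -0.12 at P2, and the medians of the members were then 0.45 and 0.41. Without a filter on low values, 14 members were higher at E19, where 20 were with it, and 2 were lower. At P2, 11 were then higher and 3 lower, and 0 were higher at E19 against P2. Testing only probe sets with a mean of 200 units dropped members, and left 13 higher at E19 against the adult and 1 higher at E19 against P2. At an adjusted p under 0.01 the counts were 13 higher and 2 lower at E19, 11 higher and 3 lower at P2, and 0 higher at E19 against P2. With values under 100 units set to 100, 1 member, Sema4a, was lower at E19 than at P2. Leaving out each array gave 13 to 19 members higher and 2 to 6 lower at E19, 13 to 18 higher and 4 to 5 lower at P2, and 0 to 3 higher at E19 against P2. The low counts were 13 without E19 pool 2, 2 without E19 pool 1 and 3 without E19 pool 2 for members lower at E19, and 0 without any 1 of the E19 or P2 pools for E19 against P2. With the replicate block, 0 members were higher at E19 against P2, and the calls of Ephb4 at P2 (adjusted p = 0.0694) and Nrp1 at E19 (0.0811) also ended, while 47 of 51 were kept. The cause of these changes was not tested.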
